A study of Mus musculus with 2 samples.

Results

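The genes Myc, Mycn, Max and Mybl2 were examined for nearby POU5F1 binding in mouse embryonic stem cells. They were chosen by name, 4 of 22238 protein-coding symbols with an annotated start on mm9, and every deposited peak within 100 kb of any of their transcript starts was taken. Chromatin immunoprecipitation followed by sequencing had been carried out with an antibody to POU5F1 (OCT4), a transcription factor of the POU class. The only group held 2 biological replicates of the embryonic stem cell line E14TG2a.4, which is male and of strain 129/Ola, labelled with an age of 3.5 day, with no treatment or contrasting condition in the labels. Both replicates came from 1 line and 1 donor, and no control library was analysed here.

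MYC and MYCN are basic helix-loop-helix leucine zipper factors that bind DNA as dimers with MAX, most often at the E-box CACGTG, and raise the transcription of genes of growth and metabolism. MAX also pairs with the MXD proteins, MNT and MGA, which mostly repress the same kind of target. Mybl2 encodes B-MYB, which belongs to the MYB family and not to the MYC family, and which works with the MuvB complex at genes of the late cell cycle. In mouse embryonic stem cells both MYC paralogues contribute to self-renewal, and POU5F1 commonly binds next to SOX2 at a composite SOX and octamer element.

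Near these genes the mm9 whole-series list held 9 of its 5515 peaks, with 2 near Myc, 3 near Mycn, 1 near Max and 3 near Mybl2. The replicate 1 list held 1 of 1330 peaks, the replicate 2 list 8 of 6324, the optimal list on mm10 7 of 3994 and the conservative list on mm10 4 of 2676. The optimal and conservative lists come from an irreproducible discovery rate (IDR) procedure, which compares how peaks rank in paired sets. Each peak carries 1 deposited signal with no replicate error, and its scaling is not stated, so signals are ranked within a list and their levels are not compared between lists. The depth of the libraries is unknown, since no read counts were used. The cell type itself could not be checked against marker genes, because peaks were the only readout.

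All 4 genes had a whole-series peak within 100 kb, where 43.3% of all protein-coding symbols had one. In the replicate 1 list 1 of the 4 genes had a peak, against 14.4% of symbols, and in the replicate 2 list 3 of the 4 did, against 47.1%. In the optimal list 3 of the 4 genes had a peak, against 32.3% of symbols, and in the conservative list 2 of the 4 did, against 23.3%. With 4 genes in 1 condition no test was made of these counts. Having a peak at this distance was common, and Myc had one in only 1 of these 5 lists.

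The sequences that carry the description of the peaks are shown next, from the mm9 reference, 5′ to 3′. At Mycn the peak found in both replicates held the only match among the 9 peaks to a POU element under the main rules, a PORE (a paired site for POU dimers) with 2 mismatches on the minus strand, and, farther out, the only intact E-box in a member peak. The capitals mark the PORE match in the first sequence, at chr12:12994392-12994436 on the minus strand, and the E-box in the second, at chr12:12994542-12994577 on the plus strand.
Mycn, 45.7 kb upstream, PORE: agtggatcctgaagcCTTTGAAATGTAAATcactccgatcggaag
Mycn, 45.7 kb upstream, E-box: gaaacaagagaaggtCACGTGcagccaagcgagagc

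Near-matches to the octamer, with 1 letter differing from ATGCAAAT, are shown in capitals for the proximal peaks of Mycn and Max and the downstream peak of Myc, because no member peak held the intact octamer. They lie at chr12:12950085-12950122 on the minus strand, chr12:78066259-78066296 on the plus strand and chr15:61844248-61844285 on the minus strand.
Mycn, 1.46 kb upstream: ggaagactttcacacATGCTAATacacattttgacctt
Max, 3.04 kb upstream: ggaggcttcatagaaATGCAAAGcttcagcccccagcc
Myc, 27.4 kb downstream: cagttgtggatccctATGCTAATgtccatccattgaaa

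Near-matches to the composite SOX and octamer element, with 3 mismatches, are shown in capitals for the upstream peak of Myc, at chr15:61810616-61810660 on the minus strand, and the intronic peak of Mybl2, at chr2:162893202-162893246 on the plus strand. These are looser than the 2 mismatches allowed in the main search.
Myc, 6.29 kb upstream: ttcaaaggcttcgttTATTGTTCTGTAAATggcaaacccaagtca
Mybl2, 12.8 kb downstream: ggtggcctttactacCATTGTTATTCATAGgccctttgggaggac

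A segment of 134 bp was shared, at 94% identity, by the other 2 peaks of Mybl2. It is shown on the plus strand, at chr2:162857470-162857603 and chr2:162887852-162887985, with the 8 positions at which the copies differ in capitals.
Mybl2, 22.75 kb upstream: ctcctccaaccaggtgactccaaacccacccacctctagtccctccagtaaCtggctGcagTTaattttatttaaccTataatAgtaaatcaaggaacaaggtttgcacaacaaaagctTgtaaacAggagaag
Mybl2, 7.545 kb downstream: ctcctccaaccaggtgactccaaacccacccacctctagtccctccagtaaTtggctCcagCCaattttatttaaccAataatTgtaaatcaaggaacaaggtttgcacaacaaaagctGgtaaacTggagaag

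For Myc (chromosome 15, 61816946 to 61821929 on mm9, plus strand), the whole-series list placed 1 peak upstream and 1 downstream, both between genes and both absent from the lists of the single replicates. The upstream peak, chr15:61810517-61810795, lay 6.29 kb from the 5′-most annotated start and had a signal of 5.58, which is the median of the list, with a deposited −log10 p of 7.437 and a q-value of 0.0019. The downstream peak, chr15:61844133-61844474, lay 27.4 kb past that start and had a signal of 3.56, with a −log10 p of 6.395. Its signal exceeded that of 1.67% of the whole-series peaks. Myc was thus represented by 1 peak of middle signal and 1 from the bottom of the list.

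On mm10, Myc had no peak within 100 kb in the optimal or the conservative list. The relaxed lists, which hold 300000 entries of peaks and background each, listed 33 entries in replicate 1 and 45 in replicate 2 within that distance. The strongest of these in replicate 1 ranked 992 with a signal of 17.98, at 25.7 kb downstream, and it overlapped no entry of replicate 2. Within 500 bp of the distance of the upstream mm9 peak, the strongest entry of replicate 2, 6.265 kb upstream, ranked 6309. The strongest entry of replicate 1 in that range ranked 73777. The replicates therefore placed their highest-ranked entries near Myc at different sites. Just past the 100 kb limit, at 105.6 kb from the nearest Myc start and 107.6 kb from the 5′-most one, stood a whole-series peak of signal 5.58 in an intron of Pvt1, a long noncoding RNA gene next to Myc, and the replicate 2 list also held it at 8.31. At the matching distance on mm10, 107.7 kb from the start, the optimal and the conservative list held a peak with a signal of 46.3.

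Mycn (chromosome 12, 12942902 to 12948720, minus strand) was the only one of the 4 genes with a peak in every list. The peak 45.7 kb upstream, chr12:12994251-12994640, lay between genes and was in both replicate lists, with a signal of 6.84 in replicate 1, where it ranked 665 of 1330, and of 8.31 in replicate 2, where it ranked 3163 of 6324. Each of these is close to the middle of its list. The deposited −log10 p was 6.652 in replicate 1, with a q-value of 0.0393, and 12.464 in replicate 2. Among the 9 member peaks it was the only one in both replicate lists, and 21.9% of all whole-series peaks were in both.

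A peak 14.5 kb downstream of the Mycn start, chr12:12933906-12934524, had the same whole-series signal of 5.58 and was in the replicate 2 list at 9.83. A further peak, chr12:12949861-12950494, lay 1.46 kb upstream and was the whole-series peak closest to the 5′-most start of any of the 4 genes. Its signal was 5.56, its whole-series −log10 p of 28.734 was the highest of the 9 peaks, and its replicate 2 signal was 8.02. Signal and −log10 p thus ordered the 3 Mycn peaks differently, since the signals lay between 5.56 and 5.58 and the −log10 p values between 13.906 and 28.734.

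The optimal and conservative lists held the distal and the downstream Mycn site but not the proximal one. The optimal peak 45.8 kb upstream, chr12:12987426-12987761 on mm10, had a signal of 42.4 and ranked 1558 of 3994, and its entries in the relaxed lists ranked 3030 in replicate 1 and 1915 in replicate 2. The optimal peak 14.5 kb downstream, chr12:12927172-12927507 on mm10, had a signal of 34.6 and ranked 2295, and its entries ranked 2041 in replicate 1 and 4556 in replicate 2. The replicates put these sites in opposite order. Near the proximal site, 1.66 kb upstream, replicate 2 had an entry ranked 4254, and replicate 1 had none near that distance.

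**Figure D1:**
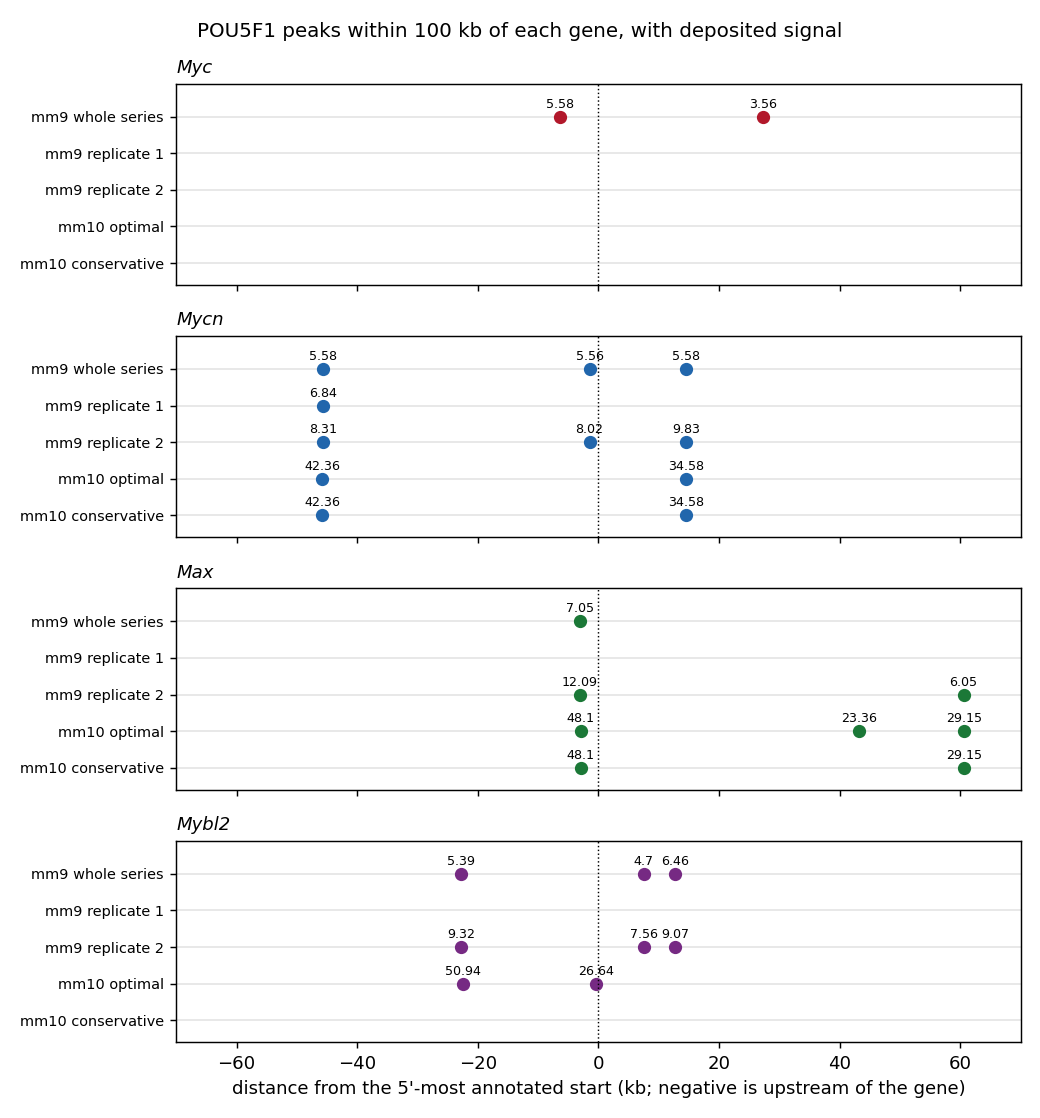
Positions of POU5F1 peaks near Myc, Mycn, Max and Mybl2 in the 5 thresholded lists. The horizontal axis is the distance in kb from the 5′-most annotated start of each gene on the build of the list (negative is upstream), each point is 1 peak and the number above it is its deposited signal, which is not comparable between rows. Peaks were sought out to 100 kb and all of them lay in the range drawn, and Mycn is the only gene with a point in every row.

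Max (chromosome 12, 78038256 to 78063235, minus strand), the dimer partner shared by the network, had the strongest mm9 peak of the 4 genes. It lay between genes 3.04 kb upstream of the start, chr12:78066046-78066510, with a whole-series signal of 7.05 that exceeded that of 75.1% of the list and a −log10 p of 23.754. In the replicate 2 list the signal was 12.1 and the rank 1108 of 6324, and the replicate 1 list held no peak near Max. The optimal peak 2.93 kb upstream on mm10, chr12:76965086-76965421, had a signal of 48.1 and ranked 1201 of 3994, and its relaxed entries ranked 3110 in replicate 1 and 936 in replicate 2. Both replicates thus had this site among the 3994 strongest entries of their relaxed lists, although the mm9 list of replicate 1 did not hold it.

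Max also had peaks past its 3′ end. The replicate 2 list held a weak one 60.6 kb downstream, chr12:78002578-78002764, of signal 6.05 and q-value 0.0975, inside an intron of Fntb, the gene of the farnesyltransferase beta subunit, and it was not in the whole-series list. On mm10 a peak at the same distance, chr12:76901555-76901890, was in the optimal list at a signal of 29.1 and a rank of 2972, and in the conservative list, with relaxed ranks of 1813 in replicate 1 and 4873 in replicate 2. The optimal list alone held another at 43.3 kb downstream, of signal 23.4 and rank 3700, whose entries ranked 132347 in replicate 1 and 4403 in replicate 2. The 3 optimal peaks of Max placed it among the 2.75% of symbols with at least 3, whereas on mm9 its single whole-series peak gave it the lowest count of the 4 genes.

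Mybl2 (chromosome 2, 162880423 to 162910424, plus strand) had 3 whole-series peaks, and none of them was in the replicate 1 list. The strongest, chr2:162893016-162893371, lay in an intron 12.8 kb past the 5′-most start and 0.755 kb before an internal annotated start, with a signal of 6.46, a −log10 p of 16.222 and a replicate 2 signal of 9.07. The upstream peak, chr2:162857470-162857883, had a signal of 5.39 in the whole series and 9.32 in replicate 2. It lay in an intron of Ift52, an intraflagellar transport gene whose start was 9.5 kb away, closer than that of Mybl2 at 22.75 kb. The weakest, chr2:162887827-162888109, lay in an intron 7.545 kb past the start, with a signal of 4.7 and a q-value of 0.0021, and a replicate 2 signal of 7.56.

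On mm10 Mybl2 had 2 optimal peaks and no conservative one. The peak 22.4 kb upstream, chr2:163031783-163032118, had the highest optimal signal near any of the 4 genes, 50.9 at rank 1076, and the replicates ranked it 165481 and 826. The peak 0.347 kb upstream of the start, chr2:163053812-163054147, was the optimal peak closest to a start of the 4 genes, with a signal of 26.6 at rank 3337 and ranks of 13072 in replicate 1 and 4936 in replicate 2. No mm9 list held a peak at that distance. The intronic mm9 peaks had entries in the relaxed list of replicate 2 at 7.91 and 13.1 kb, ranked 2721 and 2757, and none near those distances in replicate 1. Both optimal peaks of Mybl2 thus ranked higher in replicate 2, and in replicate 1 the highest-ranked entry within 100 kb stood at 6109.

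The 134 bp segment held by the upstream and the 7.545 kb peaks of Mybl2 recurred in the genome. Whole member peaks were first aligned to all whole-series peaks with BLAST at an E value of at most 1e-05. The upstream peak matched 69 other whole-series peaks and the 7.545 kb peak matched 55, while the other 7 member peaks matched none. Together, with the member peaks left out, these were 77 peaks on 20 chromosomes, 1.4% of the list, with a median signal of 6.17. Their matches need not lie in the 134 bp segment. Of them 32.5% were in the replicate 1 list and 92.2% in that of replicate 2, against 22.7% and 86.7% of all whole-series peaks. The segment alone was then searched in the mm9 genome at the same E value, a limit that is stricter in a larger sequence set. It gave 811 alignments, of which 413 covered at least 120 bases, and 4.56% of the 811 overlapped a whole-series peak. The labels and file descriptions do not say how reads that match several positions were placed, and the part of such reads in these Mybl2 peaks was not tested.

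Across the 4 genes, 1 of the 9 whole-series peaks was in both replicate lists, 6 were in that of replicate 2 only, none was in that of replicate 1 only and 2 were in neither. The shares over the whole list were 21.9% in both, 64.8% in replicate 2 only, 0.798% in replicate 1 only and 12.5% in neither. Of the 7 optimal peaks, 4 were among the 3994 strongest entries of replicate 1, 3 among those of replicate 2 and 2 among both. Of all optimal peaks 49.9% were among those of replicate 1, 80.2% among those of replicate 2 and 43.1% among both. The member peaks in both were the distal Mycn site and the proximal Max site. On mm9 the class in replicate 2 only was thus the largest, for the member peaks as for the whole list. On mm10 more of the member peaks were among the strongest entries of replicate 1 than of replicate 2, the reverse of all optimal peaks. With so few member peaks no test was made of these splits.

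**Figure D2:**
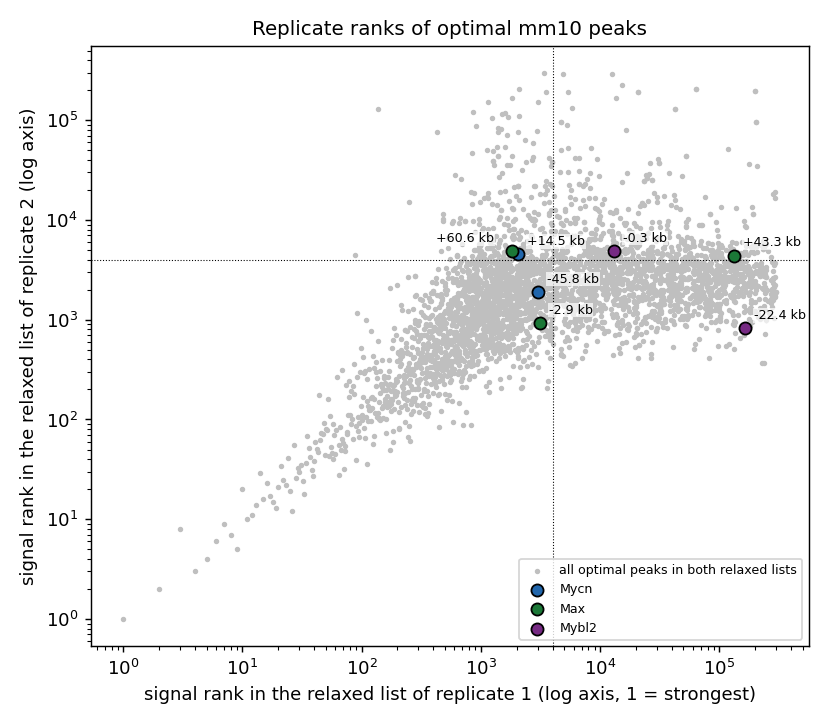
Signal rank of the optimal mm10 peaks in the relaxed list of replicate 1 (horizontal, log axis) and replicate 2 (vertical, log axis), where 1 is the strongest entry. Grey points are all optimal peaks found in both relaxed lists, coloured points are the 7 near Mycn, Max and Mybl2 labelled by distance from the 5′-most start, and dotted lines mark rank 3994. The Mycn peak at 45.8 kb and the Max peak at 2.93 kb sit below and left of both lines, and the Mybl2 peak at 22.4 kb lies far to the right at rank 165481.

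By level, the strongest whole-series peak was 7.05 for Max, 6.46 for Mybl2 and 5.58 for both Mycn and Myc, against a median of 5.87 over all symbols with a peak. By number, Mycn and Mybl2 with 3 peaks each were among the 4.61% of symbols with at least 3, and Myc with 2 was among the 15.1% with at least 2. Of the 3 Mybl2 peaks, 2 held the shared 134 bp segment. In the optimal list the order was Mybl2 at 50.9, Max at 48.1 and Mycn at 42.4, against a median of 40.8 over symbols with a peak. The Mybl2 value was that of the peak 22.4 kb upstream, which replicate 1 ranked 165481 and the conservative list did not hold. The order of Max and Mybl2 thus differed between the lists, and with 1 value per peak no spread was at hand to separate neighbours in either order. For scale, the peak 1.99 kb upstream of Pou5f1 itself had a whole-series signal of 27.9 at rank 4 and an optimal signal of 327 at rank 9. The peaks of the 4 genes lay far below it.

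The POU elements were searched within 100 bp of the centre of each mm9 whole-series peak, on both strands. The intact octamer ATGCAAAT was in none of the 9 member peaks and in 13.4% of all whole-series peaks, and the composite element with at most 2 mismatches was in none of the 9 and in 9.3%. MORE, a palindrome of ATGCAT followed by ATGCAT searched with 1 mismatch, was in none of the 9 and in 2.38%. PORE was in 1 of the 9, the distal Mycn peak, 31 bp from its centre, and in 1.76% of all. At least 1 of these elements, which can overlap each other, was in 1 of the 9 and in 21.9% of all peaks. The composite was searched as CATTGT, then C or T, then ATGCAAAT, with no other letter left open. The Pou5f1 peak given above for scale also held none of these elements under the same rules, and its closest composite match had 3 mismatches to those letters. Patterns with more letters left open were not tried, so this does not show that the Pou5f1 peak lacks a composite element. These matches describe the letters in the windows and say nothing of what was bound there.

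With looser rules more member peaks had a match. An octamer with 1 mismatch was in 4 of the 9, the 2 Mycn peaks upstream of the gene, the Max peak and the downstream Myc peak, and in 53.7% of all. In the Max peak it lay at the centre, in the proximal Mycn peak 73 bp from it and in the downstream Myc peak 36 bp from it. The composite with 3 mismatches was in 2 of the 9, the upstream Myc peak, 18 bp from its centre, and the 12.8 kb Mybl2 peak, 31 bp from its centre, and in 28.6% of all. Each of these shares was common across the list. The E-box CACGTG, the site of MYC and MAX dimers, was in none of the 9 central windows and in 1.72% of all, and over whole peaks it was in 1 of the 9, 115 bp from the centre of the distal Mycn peak, and in 3.92% of all. The GC content of the 9 peaks ran from 44.2 to 49.5%, around the list's median of 46%.

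The wider MYC and MYB networks were read from 6 lists with 61 genes in all, every one of which was matched to the annotation, 1 through an older name. A whole-series peak within 100 kb was found for 35 of the 61 (57.4%), against 43.3% of all symbols, and the median of their strongest signals was 5.87, equal to that of all symbols with a peak. The replicate 1 list gave 8 genes (13.1%, against 14.4% of all symbols) and the replicate 2 list 36 (59.0%, against 47.1%). The optimal list gave 22 (36.1%, against 32.3%) and the conservative list 19 (31.1%, against 23.3%). By list, the whole-series share ran from 41.7% for the MYB family and MuvB to 87.5% for MYC turnover. Each count per list given below is to be read beside the same 43.3% of all symbols. No test was made of these counts. A count at this distance includes many peaks that were closer to another gene. A peak for which theirs was the nearest start was found for 15 of the 61 genes, a larger share than the 15.2% of all symbols.

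Among the other partners of MAX and the related MLX, 5 of 10 genes had a peak. The strongest belonged to Mxi1, a repressor of the MXD group, at 10.9 and 13.8 kb upstream, and to Mga, a MAX partner of the repressive PRC1.6 complex, at 10.6 and 39.6 kb upstream, and both of these genes also had a peak in each replicate list and both IDR lists. Mycl, another MYC paralogue, had a peak of 8.52 at 1.95 kb downstream of its start. Each of these 3, named for the highest signals among the 10 genes, was above every whole-series peak of Myc, Mycn and Max. The remaining genes of this group with a peak were below the 7.05 of Max. Mxd1, Mxd4, Mnt, Mlx and Mlxipl had none.

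Of the MYC cofactors 5 of 10 had a peak. Ep400, a chromatin remodeller, led with 14.7 at 87.1 kb, where Galnt9 was the nearest gene. Wdr5, a subunit of histone methyltransferase complexes, had a peak of 5.87 at 18.5 kb that was nearest to its own start. Of the factors of MYC turnover 7 of 8 had a peak, against 43.3% of all symbols. In the conservative list 1 of the 8 had a peak, against 23.3%. Usp28, a deubiquitinase, had 5.87 at 96.1 kb with Htr3a nearest, and Skp2, an F-box protein, 5.58 at 5.36 kb with its own start nearest. In the IDR lists Ep400 and Usp28 had no peak within 100 kb, Wdr5 had a peak in the conservative list only and Skp2 in both.

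Of the well-known MYC targets 8 of 12 had a peak. The strongest of all 61 genes was that of Shmt2, the mitochondrial serine hydroxymethyltransferase, with a signal of 24.96 at rank 11 and 13.0 kb from its start, where Stac3 was the nearest gene. Ncl, which encodes nucleolin, had 13.8 at 50.04 kb with B3gnt7 nearest, and Npm1, which encodes nucleophosmin, 7.05 at 16.7 kb with its own start nearest. Shmt2 and Ncl had peaks in both replicate lists, as Mycn did, whereas of the replicate lists only that of replicate 2 held one for Npm1.

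In the MYB family and the MuvB and DREAM complexes with which B-MYB works, 5 of 12 had a peak. Foxm1, a forkhead factor of the late cell cycle, had 9.1 at 74.8 kb with Fkbp4 nearest, Lin37, a MuvB subunit, 7.05 at 62.9 kb with Prodh2 nearest, and Myb 5.39 at 58.9 kb with its own start nearest. Of the mitotic target genes of B-MYB 5 of 9 had a peak. Bub1, a spindle checkpoint kinase, had 9.98 at 7.74 kb with Acoxl nearest, Ccnb1, which encodes cyclin B1, 8.52 at 6.53 kb with Cenph nearest, and Ccna2, which encodes cyclin A2, 7.05 at 44.5 kb with Exosc9 nearest. All 3 were above the 6.46 of Mybl2 itself, but they were named for having the highest signals of their list. The other genes of that list with a peak were below 6.46, and the rest had none.

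**Figure D3:**
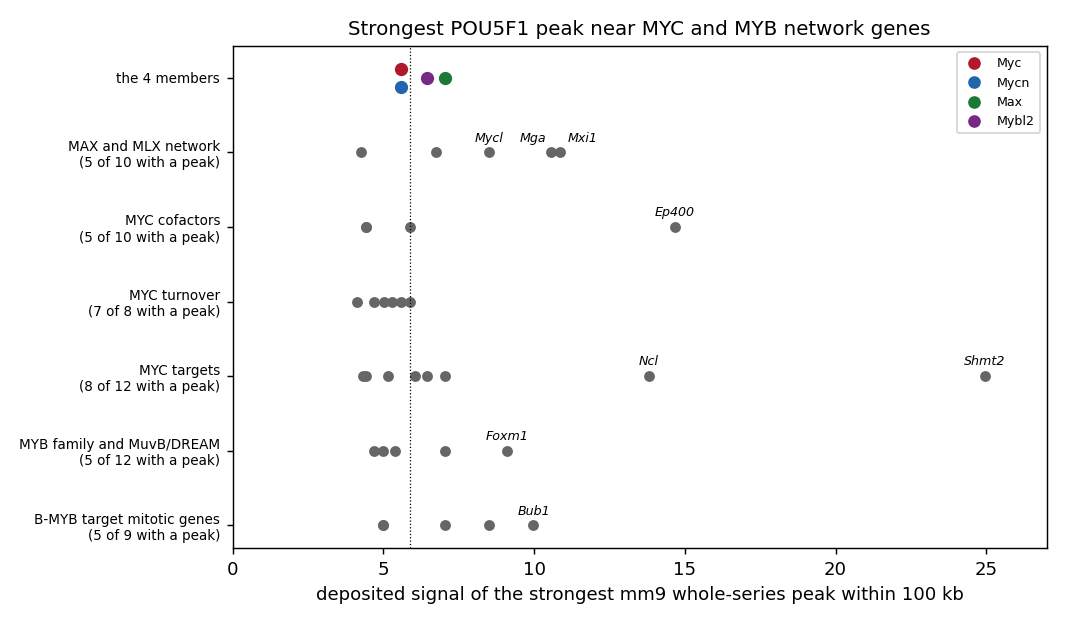
Signal of the strongest mm9 whole-series peak within 100 kb of each gene (horizontal axis, as deposited) for the 4 genes and for the network genes that had one. Each point is 1 gene, 2 network genes with a peak are not drawn, the points of Myc and Mycn, equal at 5.58, are drawn apart vertically, and the dotted line is the median of all symbols with a peak, 5.87. Shmt2 at 24.96 stands farthest to the right, and Max at 7.05 is the highest of the 4 genes.

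The genes most like each of the 4 were sought among protein-coding symbols on other chromosomes with peaks in the same mm9 lists, by the Euclidean distance between log2 signals of the strongest peak. For Mycn, with peaks in 3 lists and 3023 such symbols, they were Auh and Nfil3 at a distance of 0.0758 and Atg7 at 0.111. For Max, with 2 lists and 5657 symbols, 18 symbols had identical values, of which Arhgdib, Asb4 and Erp27 come first by name. For Mybl2, with 2 lists and 5351 symbols, they were 5730528L13Rik, Tex10 and Tmeff1 at 0.0265, and for Myc, with 1 list and 632 symbols, 12 had its value, first by name 6530401N04Rik, Dhrs11 and Ggnbp2. Signals of these lists take few distinct values, and neighbouring symbols can share the same peak within 100 kb. Either can give such ties, so symbols at an equal distance are not independent examples. Which of these held for the symbols named was not tested.

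The window of 100 kb decided little for 3 of the genes. The farthest peak inside it in the mm9 whole-series list was the Mycn peak at 45.7 kb. In the mm9 replicate 2 list it was the Max peak at 60.3 kb from its nearest start, and on mm10 the Max peak at 60.5 kb. By distance from the nearest start, the nearest whole-series peaks outside it were those at 105.6 kb from Myc, already described, at 120.6 kb from Mycn with a signal of 5.58 and at 266.8 kb from Max with 6.17, and Mybl2 had none out to 300 kb. Myc alone would have gained a peak, and its first one in the replicate 2, optimal and conservative lists, from a slightly wider window.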

How the data were processed

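The authors deposited peak lists in 2 genome builds. The mm9 lists give a signal, a −log10 p and a q-value (a p-value adjusted for many peaks) per peak, as deposited by the authors, and the mm10 lists a signal and a summit. The signal is of a kind that is never negative, and its scaling is not stated. Per the descriptions deposited with the files, the mm10 relaxed lists were the input to the IDR procedure. The aligner, the peak caller, the IDR threshold and the way the mm9 whole-series list combined the replicates are not given in the sources used here.

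Distances ran from the peak centre (mm9) or summit (mm10) to transcript starts, from GENCODE M1 on mm9 and, on GRCm38, from the RefSeq promoter table (250 bases before and 50 after each start), completed by gene bodies. That table did not list Myc, whose mm10 start came from its gene body. On mm10, 801 symbols without a strand were left out. Coordinates were never converted, so sites on the builds were set side by side only by distance from the 5′-most start, within 500 bp. The strongest entry in that range was taken. Lists were matched at an overlap of 1 bp, and an optimal peak took the rank of the strongest relaxed entry it overlapped. The composite element was allowed 2 mismatches, PORE 2, MORE 1 and the octamer 0. Sequences were read from the mm9 reference (NCBIM37). The members and lists were chosen with earlier results of these data known, and the BLAST comparison and the side-by-side distances were chosen after seeing the data. Named genes were the 4 members, genes whose start was nearest to a named peak, Pou5f1, up to 3 genes per network list by strongest signal, and 3 of like pattern per member. For 2 network genes that this rule names, the values are not reported here, though they are in the counts. With 1 group, no comparison between groups and no p-value was computed. Python 3.11.15, numpy 2.4.6, matplotlib 3.10.9 and BLAST 2.17.0 were used, and the distance step was tested on simulated data. Other distances, starts, a −log10 p minimum, motif rules and single replicate lists were tried as alternatives.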

Additional observations from a re-analysis of the deposited data

How the results depend on the processing

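The 9 whole-series peaks and the 4 genes with one were the same number at 50 kb, from the nearest peak edge and from protein-coding starts only. At 10 kb 5 peaks were left, at least 1 per gene. A −log10 p of at least 10 left 6 peaks and 3 genes, Myc being the gene lost. Using the list of 1 replicate alone, the peaks ranged from 1 to 8 and the genes from 1 to 3, the low values coming from the replicate 1 list. The share of all symbols with a peak, 43.3%, was 27.3% at 50 kb, 8.65% at 10 kb, 42.5% from protein-coding starts, 15.2% for the nearest start only and 27.9% at a −log10 p of at least 10, and ranged from 14.4 to 47.1% over single replicate lists. The 35 network genes became 7 at 10 kb, 15 by nearest start and 21 at that −log10 p, and ranged from 8 to 36 over single replicate lists. The 7 optimal peaks became 4 in the conservative list and 2 at 10 kb. The 1 of 9 peaks with a POU element became 3 with a composite of 3 mismatches and 4 with an octamer of 1 mismatch. Over all whole-series peaks the share with such an element, 21.9%, became 38% and 54.9% under the same 2 rules.

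No paired analysis was possible because the design has 1 group. Replicate 1 had fewer mm9 peaks than replicate 2, and depth is unknown, so a peak missing from a list does not show that POU5F1 was absent there. Distance does not assign a peak to a gene.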
